A study of Mus musculus with 6 samples.

Results

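Deubiquitinating enzymes (DUBs) remove ubiquitin from proteins, and 67 genes were matched to this family by symbol among the 14016 genes of the deposited table. A gene was taken when its symbol began with Usp, Otud, Uchl or Josd followed by a number, or with Uspl or Uspx, or when it was Otub1, Otub2, Bap1, Cyld, Atxn3, Brcc3, Stambp or Stambpl1. Usp18, which removes the ubiquitin-like protein ISG15, was left out. All 67 genes were annotated as protein coding. Usp6nl, a GTPase-activating protein for Rab proteins, and Uspl1, a SUMO isopeptidase, share the symbol pattern but are not DUBs, so 65 of the 67 genes remained when they were set aside.

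The libraries were made from polyA RNA of whole quadriceps muscle, dissected 7 days after volumetric muscle loss, a surgical removal of muscle tissue that is too large for the muscle to refill. The study asked how eosinophils respond to muscle trauma and to an implanted extracellular matrix, and these samples compared mice with and without eosinophils. There were 3 WT mice and 3 GATA-1 mutant mice, the latter being the ΔdblGATA line, in which a GATA site of the Gata1 promoter is deleted and eosinophils do not develop. All of the mice had the injury and none had an implant, the control defect being filled with saline per the study's methods. The methods describe the operated animals as female C57BL/6 WT mice of 10 to 12 weeks, and the age of the mutant mice was not given in the sources used here. The ΔdblGATA deletion is carried by every cell of the animal, and Gata1 also acts in red cell, platelet and mast cell precursors.

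The table gave no value for a single mouse. It gave the authors' mean log2 CPM (read counts scaled to the total of the library) of each gene, taken over the samples of their fit with both genotypes together, and this mean is the level given here. Each level is therefore the authors' value, with no SD and no n, and the depth of the libraries is unknown. No difference between genotypes was tested or described, and the order of neighbouring genes could not be set against the spread between mice. In whole muscle, fewer cells of a type and less RNA per cell cannot be told apart.

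The tissue carried its label. The 6 muscle fibre genes Acta1, Ckm, Myh4, Myh1, Tnnt3 and Des had levels of 11.74 to 14.65 log2 CPM. Macrophage genes Cd68, Adgre1, Csf1r and Lyz2 were present at 4.71 to 9.12 log2 CPM, the fibroblast genes Col1a1, Pdgfra and Dcn at 5.73 to 11.67 and the endothelial genes Pecam1 and Cdh5 at 6.41 and 6.53. The eosinophil genes Siglecf, Ccr3, Epx, Prg2 and Il5ra were not analysed here. Which of these cells gave the DUB transcripts was not tested.

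Ubiquitin is a small protein that is joined through its C terminus to lysines of other proteins, singly or as chains, and the chain's shape decides whether the target goes to the proteasome, is sorted in the cell or takes part in signalling. DUBs cut this bond. In the USP, OTU, UCH and Josephin classes a cysteine in the active site attacks the bond, whereas the JAMM class holds a zinc ion. In muscle, ubiquitin and the proteasome take apart myofibrillar proteins, so the enzymes that trim, recycle or spare ubiquitin act on the same pool.

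USP enzymes carry their catalytic cysteine in a short conserved stretch near the start of the catalytic domain, the cysteine box. The coding bases around it are shown for 10 genes that the results below turn on, and capitals mark the codon at the place of the catalytic cysteine. Usp13 and Usp5 are relatives that both have high levels per length, Usp19 and Usp2 are linked to muscle and to the clock, Usp9x, Usp7 and Usp47 depart from the usual box, Usp22 and Usp27x are close relatives with very different levels, and Usp39 has lost the cysteine. Bases were read 5′ to 3′ on the coding strand of GENCODE mouse transcripts (GRCm38).
Usp13: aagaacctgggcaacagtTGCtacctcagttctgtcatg
Usp5: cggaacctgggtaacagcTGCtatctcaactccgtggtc
Usp19: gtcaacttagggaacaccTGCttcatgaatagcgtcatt
Usp2: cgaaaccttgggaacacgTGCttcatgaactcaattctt
Usp22: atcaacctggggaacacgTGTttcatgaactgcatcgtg
Usp27x: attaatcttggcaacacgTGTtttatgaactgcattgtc
Usp9x: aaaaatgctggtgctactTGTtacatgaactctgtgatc
Usp7: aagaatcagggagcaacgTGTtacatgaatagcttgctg
Usp47: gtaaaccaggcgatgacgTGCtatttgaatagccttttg
Usp39: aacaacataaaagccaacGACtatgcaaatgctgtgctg

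These stretches of 39 bases are exonic and coding. On GRCm38 the stretch of Usp13 lies in exon 8 at chr3:32881435-32881473 on the plus strand, and that of Usp5 in exon 8 at chr6:124822561-124822599 on the minus strand. Usp19 has it in exon 12 at chr9:108495651-108495689, plus strand, and Usp9x in exon 31 at chrX:13145201-13145239, plus strand. The stretch of Usp2 crosses an intron, with its cysteine codon at chr9:44090030-44090032 in exon 4, plus strand. Usp7 carries it in exon 7 at chr16:8707671-8707709, minus strand, and Usp47 in exon 6 at chr7:112058986-112059024, plus strand. Usp22 has it in exon 5 at chr11:61162944-61162982, minus strand, and Usp27x in exon 1 at chrX:7374583-7374621, minus strand. The stretch of Usp39 is in exon 5 at chr6:72337705-72337743, minus strand.

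Across the USP class, 45 of 46 genes had a cysteine codon at this place, 25 of them TGC and 20 TGT. Usp39, a spliceosome protein with a USP fold, had GAC, an aspartate codon, in its place. In 37 genes the cysteine codon followed codons for asparagine and then threonine or serine. In Usp7, Usp9x, Usp24, Usp34 and Usp48 it followed codons for alanine and threonine. These 5 have coding sequences of 3159 to 10749 bases, with a median of 7665. The 37 have 1101 to 4815 bases, with a median of 2751, so the ranges overlap. The 5 had a median level per length of 3.00 log2 CPM per kb and the 37 a median of 2.09, and both sets overlapped over the whole range of the 5, from 2.25 to 4.08. Usp10, Usp40 and Usp47 had other codons before the cysteine.

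CPM counts reads per gene, so a long transcript collects more of them. Differences between genes are therefore given per length, as log2 CPM minus the log2 of the longest coding transcript in kb, and values in log2 CPM or CPM describe reads and not transcripts. It was not given whether the authors had scaled transcript abundances by length when they were imported, and if they had, dividing by length would count it again. The 67 genes had longer transcripts than most, with a median of 4327 bases against 3137 over the 13945 genes with a length, and a range from 930 bases (Josd2) to 12200 bases (Usp34). Level and length were weakly related over the 67 genes (Spearman's rho 0.171, Pearson's r with log2 length 0.246) and less so over all genes with a length (rho 0.0586). All of these points come from the same pooled libraries, and the coefficients are descriptions.

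**Figure D1:**
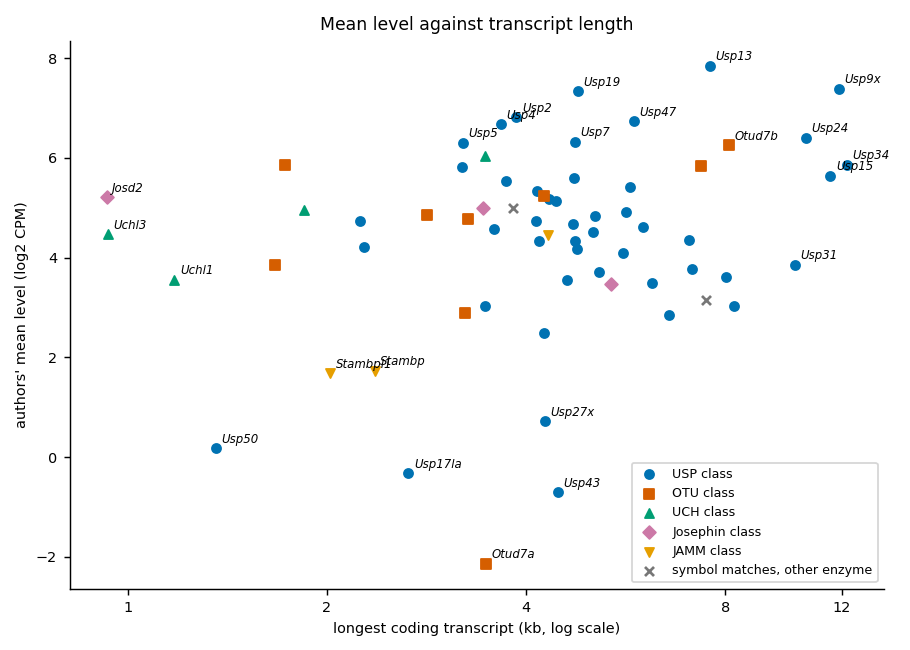
The authors' mean level (log2 CPM, vertical axis) of each of the 67 genes against the length of its longest coding transcript in kb (horizontal axis, log scale), 1 point per gene with marks by enzyme class. Usp13 had 7.85 log2 CPM, and Otud7a, Usp43 and Usp17la lay below 0 with transcripts of 2656 to 4462 bases.

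DUB genes were mostly of middling abundance. Per length, their median was 2.68 log2 CPM per kb against 2.28 over all genes, and 38 of 67 (56.7%) lay above the median of all genes. Between 2 and 4 log2 CPM per kb there were 31 of the 67 genes (46.3%), against 33.0% of all genes. At the upper end, 14 of 67 (20.9%) were above the upper quartile of all genes, and 1 of 67 (1.49%) was among the highest 10% of genes, which begin at 5.22 log2 CPM per kb. At the lower end, 11 of 67 (16.4%) were below the lower quartile. The surplus over all genes depended on the length used, since the difference of the medians was 0.40 with the longest coding transcript and 0.016 with coding length. Genes are not replicates, and no test was made over them.

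**Figure D2:**
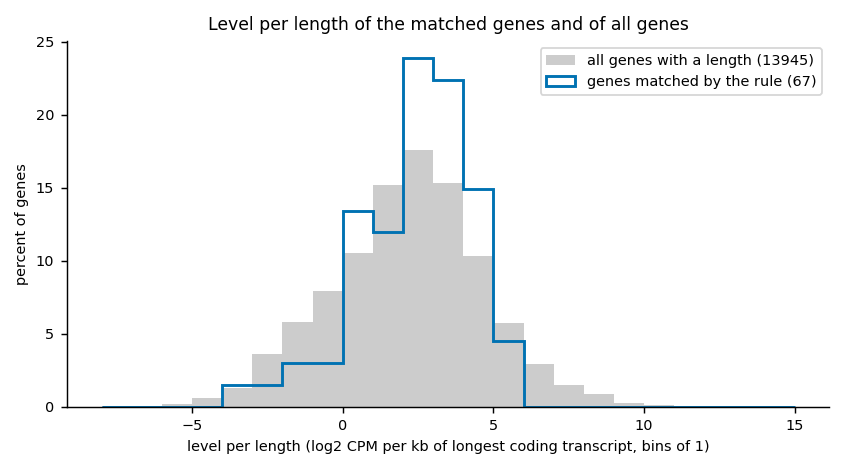
Percent of genes (vertical axis) in bins of 1 log2 CPM per kb of longest coding transcript (horizontal axis), for the 13945 genes with a length in grey and the 67 genes matched by symbol as a blue line. The line stands above the grey bars between 2 and 4 log2 CPM per kb, where 46.3% of the 67 genes and 33.0% of all genes lie.

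The share of the family's reads in its highest genes was computed, but the same share over all genes was not. On the linear scale the geometric mean CPM of the 67 genes summed to 2555, of which Usp13 took 9.02%, the first 3 genes (Usp13, Usp9x and Usp19) 21.8% and the first 10 genes 46.9%. The first 20 genes took 67.4%. This is a share of reads and not of transcripts, since Usp9x has a long transcript of 11887 bases.

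**Figure D3:**
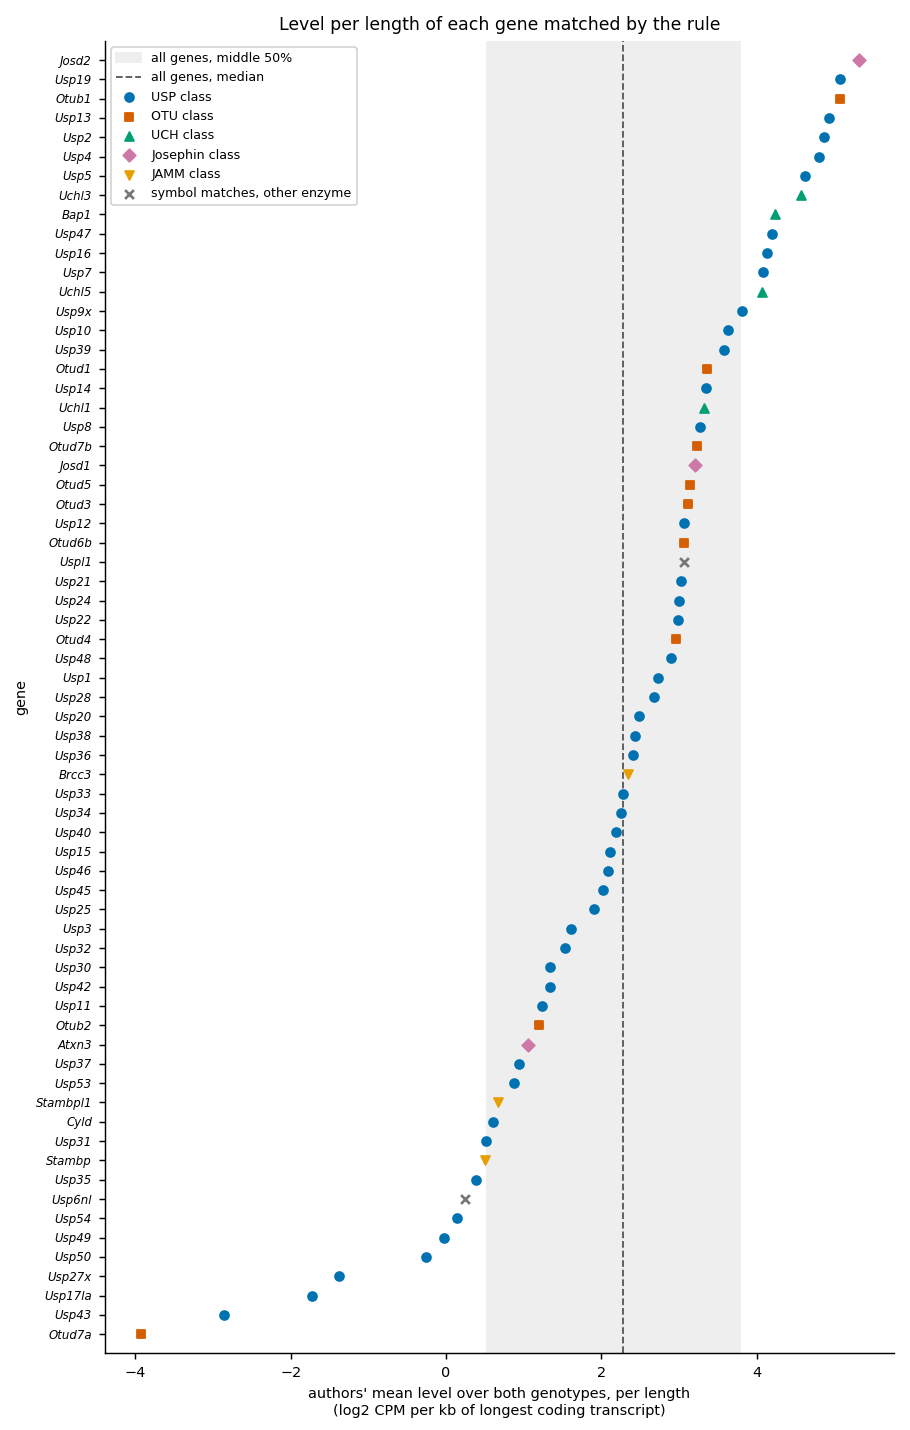
Level per length (log2 CPM per kb of longest coding transcript, horizontal axis) of each of the 67 genes (vertical axis), 1 point per gene with marks by enzyme class, beside the median of all genes (dashed line) and their middle 50% (grey band). Josd2 stood highest at 5.31 and Otud7a lowest at -3.93, and 42 genes lay inside the band.

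Genes were put into groups by role after their values were seen, so the group medians are descriptions only. Of the larger groups, the one named for free ubiquitin chains and the proteasome had the highest median, 4.32 log2 CPM per kb over 8 genes. The name is loose, since the group also holds Otub1 and small C-terminal hydrolases. Of these 8 genes, 7 were above the median of all genes. Usp13 had a level of 7.85 log2 CPM, a geometric mean of 230 CPM. Its level per length was 4.93 log2 CPM per kb, higher than 87.7% of genes. Usp5, or isopeptidase T, takes unanchored ubiquitin chains apart. It had 6.30 log2 CPM and 4.62 per kb. Otub1, which also holds back ubiquitin-conjugating enzymes without cutting, had 5.85 log2 CPM and 5.07 per kb. Usp14 and Uchl5 sit on the regulatory particle of the proteasome and trim chains before the target is degraded. Usp14 had 3.35 log2 CPM per kb and Uchl5 4.06. Of the small C-terminal hydrolases, Uchl3 had 4.57 log2 CPM per kb and Uchl1, best known from neurons, 3.32. Atxn3, the Josephin enzyme whose polyglutamine tract is expanded in Machado-Joseph disease, was the lowest of the 8 at 1.05. With the shortest coding transcript Atxn3 had 3.48, above Uchl1 at 3.32.

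Usp19 and Usp2, which are linked to muscle and to the clock, both had high levels. They were set apart after values were seen, so their levels do not describe enzymes of muscle or of the clock in general. Usp19 is anchored in part to the endoplasmic reticulum and is known to increase in wasting muscle. It had a level of 7.33 log2 CPM and 5.07 per kb, higher than 89.0% of genes with a length. Usp2, an output of the circadian clock with several isoforms, had 6.82 log2 CPM and 4.87 per kb, higher than 87.2% of genes.

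The 4 enzymes grouped as large with many targets lay from 2.25 to 4.19 log2 CPM per kb, with a median of 3.40. Size alone did not define this group. Usp32 (1604 amino acids, 1.54 log2 CPM per kb) and Usp54 (1588 amino acids, 0.14) encode longer proteins than Usp47 (1376) but were put into other groups. Usp47, a partner of the base excision repair polymerase, had 4.19. Usp9x, the X-linked enzyme that acts on endosomes and on apoptosis and polarity proteins, had 7.38 log2 CPM and ranked 14 in the family per length at 3.81 log2 CPM per kb. Usp24 had 3.00 log2 CPM per kb. Usp34, which acts on axin in Wnt signalling, had 2.25 log2 CPM per kb, close to the median of all genes.

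Among the 11 enzymes of signalling, 6 lay above the median of all genes and the median was 2.96 log2 CPM per kb. Usp4 was the highest at 4.80 log2 CPM per kb, followed by Otud1 at 3.36, but per coding length it had 5.14 beside 5.03 for Usp12 and 4.92 for Otud7b. Its relative Usp15, which like Usp4 acts on the TGF-β receptor and SMAD pathway, had 2.11. The 4 OTU enzymes Otud1, Otud7b, Otud5 and Otud4 fell close together, from 2.96 to 3.36 log2 CPM per kb. Otud7b, or Cezanne, and Otud5 limit NF-κB and interferon signalling. Cyld, which removes linear and other non-degradative chains from NF-κB and cell death complexes, was low at 3.61 log2 CPM and 0.61 per kb. Usp31 was as low at 0.51 log2 CPM per kb, and Usp25 had 1.91.

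The 10 chromatin enzymes spread widely, from -1.37 to 4.24 log2 CPM per kb, with a median of 2.70. Bap1, which takes ubiquitin off histone H2A and is a tumour suppressor, had 4.24. Usp16, another H2A enzyme, had 4.13, and Usp7, which stabilises both p53 and its ligase Mdm2, had 4.08. Usp21 had 3.02 log2 CPM per kb, and Usp22, the enzyme of the SAGA coactivator, had 2.99. Usp36, a nucleolar enzyme, had 2.41. Lower values were those of Usp3 (1.61), Usp42 (1.34) and Usp49 (-0.023 log2 CPM per kb). Usp27x, a relative of Usp22, was the lowest of the 10.

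The 6 enzymes of DNA repair and the cell cycle lay between 0.94 and 2.73 log2 CPM per kb, with 3 of 6 above the median of all genes. Usp1, which acts on FANCD2 and PCNA, had 2.73 and Usp28 had 2.68. Brcc3, the JAMM enzyme of the BRCA1-A and BRISC complexes, had 2.34. Usp45 had 2.02 log2 CPM per kb, Usp11 1.23 and Usp37 0.94.

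The 8 enzymes of endosomes and organelles had a median of 1.91 log2 CPM per kb, and 3 of the 8 were above the median of all genes. Usp10, which binds the stress granule protein G3bp1, had 3.63. The endosomal sorting machinery uses both a cysteine and a metal enzyme on the same cargo. Usp8, the cysteine enzyme, had 3.27 log2 CPM per kb, whereas Stambp, the JAMM enzyme also known as AMSH, had 0.50 and its relative Stambpl1 0.67. Usp20 had 2.48 log2 CPM per kb, Usp33 2.27 and Usp32 1.54. Usp30 sits in the outer membrane of mitochondria, where it opposes Parkin, and had 1.34 log2 CPM per kb.

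The USP members with an unusual catalytic domain were low except for Usp39. Usp39, whose box lacks the cysteine codon, had 3.58 log2 CPM per kb. Usp53 had 0.87, Usp54 0.14 and Usp50 -0.26.

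The 12 remaining enzymes held both ends of the family per transcript length. Josd2, a small Josephin enzyme, had the highest level per length, 5.31 log2 CPM per kb from a transcript of 930 bases. It did not stay first on the other length scales. Per coding length Usp13 (6.48) and Otub1 (6.15) exceeded Josd2 (6.02), with the shortest coding transcript Usp13 (6.38) and Usp2 (6.25) exceeded it (6.03), and with the mean coding transcript Usp2 and Josd2 were level (5.57 and 5.56). Josd1 had 3.21 log2 CPM per kb, Otud3 3.11, Otud6b 3.06 and Usp48 2.89. Usp38 had 2.44 log2 CPM per kb, Usp40 2.19, Otub2 1.20 and Usp35 0.39.

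**Figure D4:**
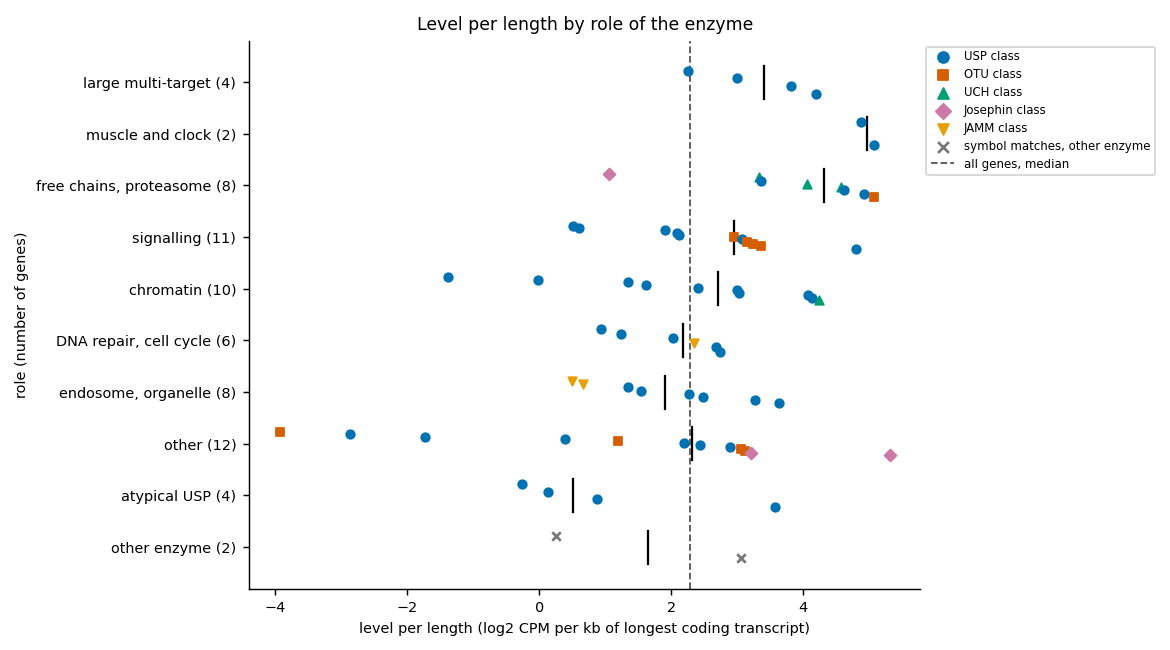
Level per length (log2 CPM per kb of longest coding transcript, horizontal axis) of the 67 genes in groups by known role (vertical axis, number of genes in parentheses), with marks by enzyme class, black bars for the group medians and a dashed line for the median of all genes. The free chain and proteasome group has a median of 4.32 and the atypical USP group one of 0.50. Groups were assigned after values were seen.

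With the longest coding transcript, the 4 UCH enzymes were the only class of which every gene lay above the median of all genes. Their values were 3.32 to 4.57 log2 CPM per kb. The 9 OTU enzymes had a median of 3.11 log2 CPM per kb, with 7 of 9 above the median of all genes. The 46 USP enzymes had a median of 2.34, with 23 of 46 above it. The 3 Josephin enzymes ran from 1.05 to 5.31 log2 CPM per kb and the 3 JAMM enzymes from 0.50 to 2.34. In log2 CPM, 3 of the 4 UCH genes lay above the median of all genes. Classes were not counted on the other length scales, and with the shortest coding transcript the 3 Josephin genes had 3.21 to 6.03.

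The 3 genes lowest per length, Otud7a, Usp43 and Usp17la, were also those with mean levels below 1 CPM. Otud7a, which is known mainly from brain, had -2.13 log2 CPM, Usp43 -0.71 and Usp17la, of a family induced by cytokines in blood cells, -0.32. Per the study's methods, a gene was kept only if 3 or more samples exceeded 1 CPM. The lowest mean over all genes was -4.08 log2 CPM, and the number of samples behind each mean was not given. If that filter held for the samples averaged, a mean below 1 CPM would join samples above and below that limit. Such a mean need not describe any one mouse. Levels below 0 were found for 3 of 67 genes (4.48%), against 8.55% of all genes. Just above them, Usp50 had 0.18 log2 CPM and Usp27x 0.72.

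Related genes differed in level to varying degrees. Pairs of unrelated genes were not compared, so the counts describe these pairs only. The middle 50% of all genes ran from 0.53 to 3.78 log2 CPM per kb. Of 22 pairs of relatives, 13 differed by more than 1 on the log2 scale per transcript length, and 11 did so per coding length too. The widest gap was that of Otud7b and Otud7a, whose encoded proteins are 61.7% identical, with 3.23 against -3.93 log2 CPM per kb. Usp22 and Usp27x, 79.0% identical, had 2.99 against -1.37 log2 CPM per kb, a 20.6-fold difference. Their printed boxes agree in 32 of 39 bases. Otub1 exceeded Otub2 by 3.87 on the log2 scale per kb, and Usp4 exceeded Usp11 by 3.57. Usp8 exceeded its shorter relative Usp50 by 3.54, and Usp31 exceeded Usp43 by 3.37. Otud7a and Usp43 had mean levels below 1 CPM, so their gaps need not hold in each mouse.

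Other pairs were close. Usp12 and Usp46, the most alike with 88.3% identity, both work with the cofactor Wdr48, and differed by 0.98 on the log2 scale per kb (3.07 against 2.09). Usp28 exceeded Usp25 by 0.77, and Usp9x exceeded Usp24 by 0.81. Usp20 and Usp33 differed by 0.21, but by 2.01 with the shortest coding transcript of each, and Usp33 shares many of its words with other genes. Usp13 and Usp5, 60.7% identical with coding sequences of equal length, differed by 0.30 per transcript length but by 1.54 per coding length, because the longest Usp13 transcript has 7580 bases and that of Usp5 3213. For Bap1 and Uchl5 (0.18) and for Stambpl1 and Stambp (0.17) the order turned per coding length, to -0.058 and -0.091. For Josd1 and Atxn3 the order turned with the shortest coding transcript, from 2.16 to -0.27.

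**Figure D5:**
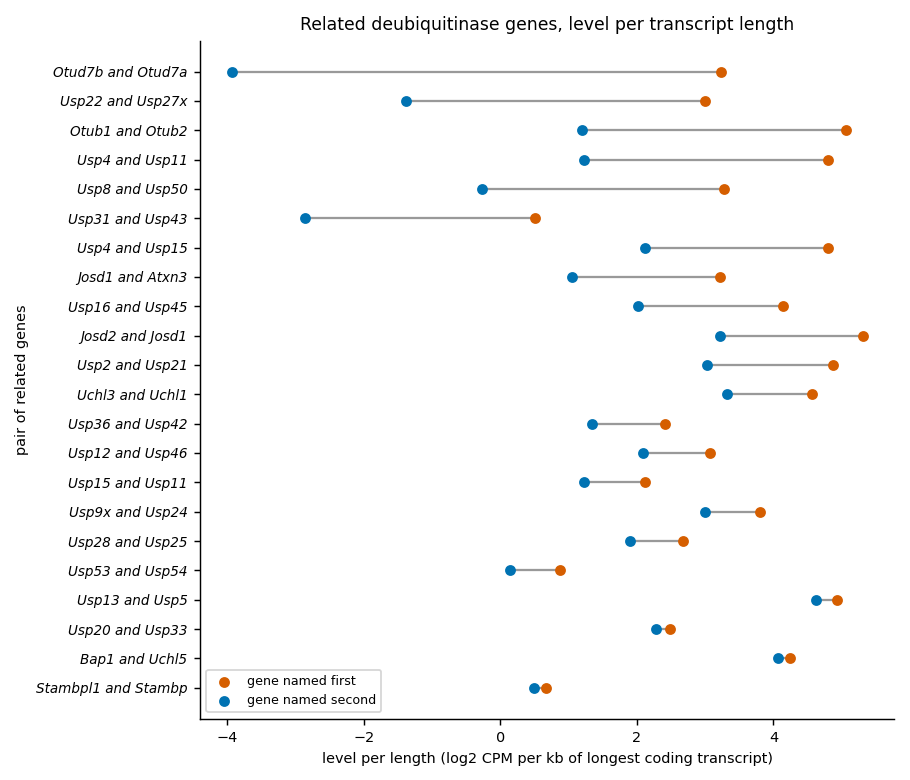
Level per length (log2 CPM per kb of longest coding transcript, horizontal axis) of both genes in each of 22 pairs of related genes (vertical axis), the gene named first in orange and the gene named second in blue. Otud7b and Otud7a lie 7.17 apart and Stambpl1 and Stambp 0.17 apart.

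Sequence that is also found in transcripts of other genes limits some of these values. Words were counted on either strand, also where genes overlap in the genome. Whether the libraries kept the strand was not given. Of the 67 genes, 12 shared at least 10% of their 31-base words with transcripts of another gene and 7 at least 25%. Taking the gene that held most of them, Usp49 shared 52.4% of its words with Gm20517, Usp14 45.5% with Thoc1, Uchl3 38.7% with Uchl4 and Usp33 34.3% with Gm43857. Usp1 shared 33.2% with Gm5841 and Usp38 24.5% with Gm9725. Usp17la shared 23.1% with Usp17le and 38.9% with all other genes together. The values of these 7 genes are uncertain, since reads of the shared words may have been divided between genes. Among the pairs of relatives, only Stambp and Stambpl1 (0.401%) and Usp22 and Usp27x (0.047%) shared any.

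Beyond the symbols matched, 15 other DUB and DUB-related genes had levels from 1.17 to 6.86 log2 CPM, with a median of 2.42 log2 CPM per kb. Cops5, the deneddylase of the COP9 signalosome, had 6.03 log2 CPM per kb, and Psmd14, the JAMM enzyme of the proteasome lid, had 5.30. Zranb1 had 3.80 log2 CPM per kb and Otulin, which cuts linear chains, 4.06. Tnfaip3, or A20, an inhibitor of NF-κB, had 1.24, and Mindy4 -0.92. Their substrate was far more abundant, with 8.32 log2 CPM per kb for the precursor gene Rps27a and 9.44 for Ubb. Uba1, the main ubiquitin-activating enzyme, had 5.59 log2 CPM per kb and Uba6 had 1.09. With the longest coding transcript Uba1 lay above each of the 67 genes, but it was not compared on the other length scales. In log2 CPM, Usp13 (7.85) exceeded Uba1 (7.61).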

How the data were processed

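RNA of 3 WT and 3 GATA-1 mutant muscles was sequenced. Per the study's methods, the authors pseudoaligned paired-end reads with kallisto, computed CPM with edgeR, kept genes with CPM over 1 in at least 3 samples, and normalised log2 values by the trimmed mean of M-values before limma. The labels name GRCm39 (mm39). The deposited table holds 14016 genes with the authors' mean log2 CPM, used here, and 5 columns of their genotype comparison (log2 fold change, moderated t, p-value, adjusted p-value and log odds), not used here. Depth per sample is unknown, so no interval was computed, and the limma test that had been planned on values per mouse was not run.

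Genes were matched by symbol (13458) or older symbol (487) to GENCODE release M21 (GRCm38), which gave 13945 genes (99.5%) a transcript length. Level per length is log2 CPM minus log2 length in kb. Encoded identity came from global alignment of translated coding sequences (Biopython 1.88, BLOSUM62, gap costs 11 and 1), as percent of the shorter. Sequence shared with other genes was measured in words of 31 bases on either strand. Cysteine boxes were read from coding transcripts. Scripts ran in Python 3.11.15 and were tested on simulated data. All members may be named, by the rule used. The members and lists were chosen with earlier results of these data known, and role groups and enzyme-partner pairs were assigned after values were seen. Some genes of the marker and precursor lists are not reported here.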

Additional observations from a re-analysis of the deposited data

How the results depend on the processing

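No paired analysis was possible because the table gives no value per mouse. For the same reason other pseudocounts, leaving out each mouse and filters on low values were not run for a genotype test. The median level of the 67 genes, 4.67 log2 CPM, was 4.76 over genes of at least 1 log2 CPM, 4.74 over genes with under 10% shared words (chosen after seeing the data) and the same without Usp6nl and Uspl1, and the mean was 4.38. The median of all genes, 4.03 log2 CPM, was 4.06 over protein-coding genes. The median per length, 2.68 log2 CPM per kb, was 3.43 with coding length, 3.00 with the shortest and 2.88 with the mean coding transcript. Its excess over all genes, 0.40, was 0.016 with coding length, 0.23 with the shortest and 0.40 with the mean coding transcript, and 0.37 against protein-coding genes. The USP class median, 4.64 log2 CPM, was 4.67 without Cyld. Of the 22 pairs, 20 kept their order per coding length, 21 with the shortest and 22 with the mean coding transcript (the last pair of scales chosen after seeing the data). The exceptions were Bap1 and Uchl5 (-0.058), Stambpl1 and Stambp (-0.091) and, with the shortest transcript, Josd1 and Atxn3 (-0.27). Unknown depth sets no limit of detection here.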

Other observations

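Many DUBs work in complexes, and 24 genes of binding partners had a median level of 2.64 log2 CPM per kb. Of 27 pairs of an enzyme and a partner, 21 kept the sign of their difference per transcript and per coding length. Bap1 exceeded its cofactors Asxl1 by 2.64 and Asxl2 by 3.14 on the log2 scale per kb. Uchl5 and Usp14, by contrast, were lower than the proteasome subunits beside them. Uchl5 minus Adrm1 was -1.91 and Usp14 minus Psmd14 was -1.95. Stambp was lower than the adaptors it shares with Usp8, with differences of -1.83 to Stam and -1.77 to Stam2. Usp8 minus Stam was 0.95 and Usp8 minus Stam2 was 1.01 per transcript length, and the signs turned per coding length (-0.31 and -0.23).

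The partners of Brcc3 were uneven. Babam1, common to the BRCA1-A and BRISC complexes, had 5.29 log2 CPM per kb and Babam2, which is also in both, -0.56. Abraxas2, the scaffold of BRISC, had 3.57 log2 CPM per kb and Abraxas1, that of BRCA1-A, 0.93. Vcp, the ATPase that Atxn3 binds, had 7.44 log2 CPM per kb, 6.39 on the log2 scale above Atxn3. Per coding length, Atxn3 minus Vcp was -4.51. Spata2, the adaptor of Cyld, had 2.51 log2 CPM per kb against 0.61 for Cyld. Usp18, left out of the family, had 2.29 log2 CPM and 1.47 per kb.

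The annotation used here holds 78 coding genes that the symbol rule would match. The 11 without a level (Otud6a, Uchl4, Usp17lb, Usp17lc, Usp17ld, Usp17le, Usp26, Usp29, Usp44, Usp51 and Usp9y) were not analysed here.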
